A study of Mus musculus with 3 samples.

Results

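Molecular chaperones of the HSP70, HSP110, HSP90, J protein, small heat shock protein, HSP60 and HSP10, CCT and BAG families were followed in C2C12 myotubes. Members were taken from the deposited gene table by symbol, as rows with a single symbol that begins with Hspa, Hspb, Hspd1, Hspe1, Hsph1, Hsp90a, Dnaja, Dnajb, Dnajc, Bag or Cct and a number, leaving out Hspa5. A mean of at least 1 FPKM (sequenced fragments scaled by transcript length and library size) over the 3 libraries was required. Of 82 such symbols, 70 reached that mean, among 11211 genes with a single symbol and the same mean. No measured difference enters this rule. Just inside the minimum were Hspa1l, with 1.43, 1.71 and 1.27 FPKM in control, conditioned media and resveratrol, and Dnajc28, and just outside were Hspa12b, with a mean of 0.745 FPKM, and Dnajc22, with a mean of 0.675 FPKM. The 12 symbols below the minimum, among them Dnajc5b and Dnajc5g at 0 in all 3 libraries, are not described further. By textbook location, 37 members act mainly in the cytosol or nucleus, 10 in mitochondria and 11 in the endoplasmic reticulum, and 12 are better known for another role than folding, so the families reach beyond the cytosol and mitochondria.

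C2C12 is an established mouse myoblast line that fuses into contracting muscle fibres in culture. Differentiation took 72 hours, with horse serum at 2% and insulin at 1 µg/ml, and treatment lasted 24 hours. The control was DMEM, with its serum not given. Conditioned media had spent 24 hours on S2-013, a human line from a pancreatic carcinoma, and 1 of the 2 cultures given it also received the plant polyphenol resveratrol at 50 µM. The labels name no genetic change, and no culture with resveratrol alone was used here. Each group was 1 library of total RNA from 1 line, so differences have no replicate check, no SD could be given, and depth is unknown because FPKM carries no counts. The labels name the cell type as myoblast, while all 9 myotube markers were above 1 FPKM, with a sum of 5065, 4326 and 6607 FPKM in control, conditioned media and resveratrol. Of the other marker lists, 4 of 4 genes of proliferating cells summed to 113, 144 and 37.8 FPKM, 4 of 5 fibroblast genes reached the minimum and the 5 summed to 2415, 3331 and 2343 FPKM, and 4 of 5 myoblast and reserve cell genes reached it, with sums of 134, 129.7 and 125 FPKM. None of 4 adipocyte, 1 of 4 epithelial and 1 of 4 macrophage genes reached the minimum, with the highest sum of a library at 3.26 FPKM and Ptprc and Adgre1 listed at 0 throughout. In such mixed RNA, fewer cells of a type and less RNA per cell cannot be told apart, and the part of these markers in the results was not tested.

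Chaperones bind unfolded stretches of protein and release them in cycles. HSP70 proteins use ATP to grip and release a client, J proteins deliver the client and start ATP hydrolysis, and BAG and HSP110 proteins exchange the nucleotide so that the client leaves. HSP90 acts later on near-native clients such as kinases and receptors, the ring-shaped chaperonins CCT and HSP60 enclose a client, and small heat shock proteins hold damaged protein without ATP. Muscle depends on them for folding actin and myosin and for clearing damaged proteins of the contractile filaments. Many of these genes respond to heat shock factors, which bind repeats of the letters GAA and TTC in promoters.

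The promoters of 5 members whose values are described below show which of them carry such letters near the start of the gene. The windows run from 250 bases before to 50 after the annotated start in RefSeq, on build GRCm38.p6, and are written 5′ to 3′ on the strand of the gene. In the first 4, capitals mark matches to 3 heat shock units, GAA, TTC and GAA with 2 bases between neighbours, on either strand, or, in Hspb8, which holds no such match, to GAANNTTC or TTCNNGAA (2 units). In Dnajb9, which holds neither, capitals mark CCAAT and CACGTG. Hspe1, the mitochondrial HSP10 gene, is shown from chr1:55087898-55088197, plus strand. Its window shares 285 bases with that of Hspd1, the HSP60 gene on the minus strand. Hsph1, the HSP110 gene, is from chr5:149636266-149636565, minus strand. Dnajb6, a J protein of muscle, is from chr5:29735648-29735947, plus strand. Hspb8, a small heat shock protein, is from chr5:116422815-116423114, minus strand. Dnajb9, a J protein of the endoplasmic reticulum, is from chr12:44210019-44210318, minus strand.
Hspe1: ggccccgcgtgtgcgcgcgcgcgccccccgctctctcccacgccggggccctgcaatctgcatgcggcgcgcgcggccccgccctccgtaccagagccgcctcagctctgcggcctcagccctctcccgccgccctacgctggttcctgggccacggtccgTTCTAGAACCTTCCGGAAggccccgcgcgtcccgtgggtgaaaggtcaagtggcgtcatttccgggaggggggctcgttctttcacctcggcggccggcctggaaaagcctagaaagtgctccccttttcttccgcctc
Hsph1: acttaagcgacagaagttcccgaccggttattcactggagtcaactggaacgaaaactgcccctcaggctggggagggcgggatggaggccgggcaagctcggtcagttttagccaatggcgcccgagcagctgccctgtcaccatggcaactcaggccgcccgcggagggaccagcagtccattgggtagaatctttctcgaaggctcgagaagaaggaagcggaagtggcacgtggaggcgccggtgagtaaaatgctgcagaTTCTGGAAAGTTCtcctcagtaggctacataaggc
Dnajb6: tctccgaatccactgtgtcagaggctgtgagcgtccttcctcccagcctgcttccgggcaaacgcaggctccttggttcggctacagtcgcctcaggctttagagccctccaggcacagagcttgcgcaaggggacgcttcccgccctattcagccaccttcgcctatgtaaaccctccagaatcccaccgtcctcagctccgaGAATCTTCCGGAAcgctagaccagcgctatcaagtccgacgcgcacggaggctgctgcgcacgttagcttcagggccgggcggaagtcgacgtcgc
Hspb8: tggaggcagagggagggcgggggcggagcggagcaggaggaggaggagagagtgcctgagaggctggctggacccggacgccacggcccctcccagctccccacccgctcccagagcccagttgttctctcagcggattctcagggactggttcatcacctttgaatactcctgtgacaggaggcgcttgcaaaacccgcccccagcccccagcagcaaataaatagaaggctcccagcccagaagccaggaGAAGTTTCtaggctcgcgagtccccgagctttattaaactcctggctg
Dnajb9: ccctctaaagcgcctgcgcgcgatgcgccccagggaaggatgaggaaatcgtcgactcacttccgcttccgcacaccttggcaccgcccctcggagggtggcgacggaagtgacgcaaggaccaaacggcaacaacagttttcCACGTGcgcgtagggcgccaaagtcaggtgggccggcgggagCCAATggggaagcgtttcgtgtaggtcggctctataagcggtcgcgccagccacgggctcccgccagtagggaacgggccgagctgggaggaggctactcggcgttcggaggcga

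The marked run of Hspe1, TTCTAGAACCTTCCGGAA, spans 18 bases from 89 to 72 bases before the start, and that of Hsph1 lies inside the transcribed part, 15 to 27 bases after it. RefSeq promoters were found for 56 of the 70 members. A gene with several promoters was counted once, as holding a match if any of them did. The 3 units were held by 4 of these members (7.14%), namely Dnajb6, Hspd1, Hspe1 and Hsph1. The share was 0.662% of all 27025 genes, which have 32851 promoters of the same length. The 2 units, which every window with 3 units also holds, were in 17 members (30.4%) against 17.0% of genes. CCAAT was in 20 members (35.7%) against 41.1% of genes, and CACGTG in 6 (10.7%) against 8.09%. CCAAT and CCACG with 9 bases between them form a stress element of reticulum genes that was searched after the values were seen. On either strand, it was in 1 member, Dnajc3 (1.79%), against 0.137% of genes. A match of letters is a description of the window and not a bound site.

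Together the 70 genes summed to 6096 FPKM in control, 4989 FPKM in conditioned media and 5759.9 FPKM with resveratrol. The sum was highest in control and lowest in conditioned media. With FPKM rescaled to a common sum over all 24401 loci (TPM), however, resveratrol stood 1.08 times as high as control. The 11211 compared genes alone summed to 553599 FPKM in control and 614606 FPKM with resveratrol. A rescaling on those, which was not run, would lower the ratio instead. Hspa8 alone was 20.2%, 10.7% and 16.4% of the FPKM sum, and without Hspa8 the sums were 4867, 4453 and 4815 FPKM. The median member stood at 27.4, 24.95 and 29.7 FPKM, against 13.4, 13.1 and 13.2 FPKM for the median of all 11211 genes. The plot of levels by family shows the spread from about that of Hspa1l to that of Hspa8.

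**Figure D1:**
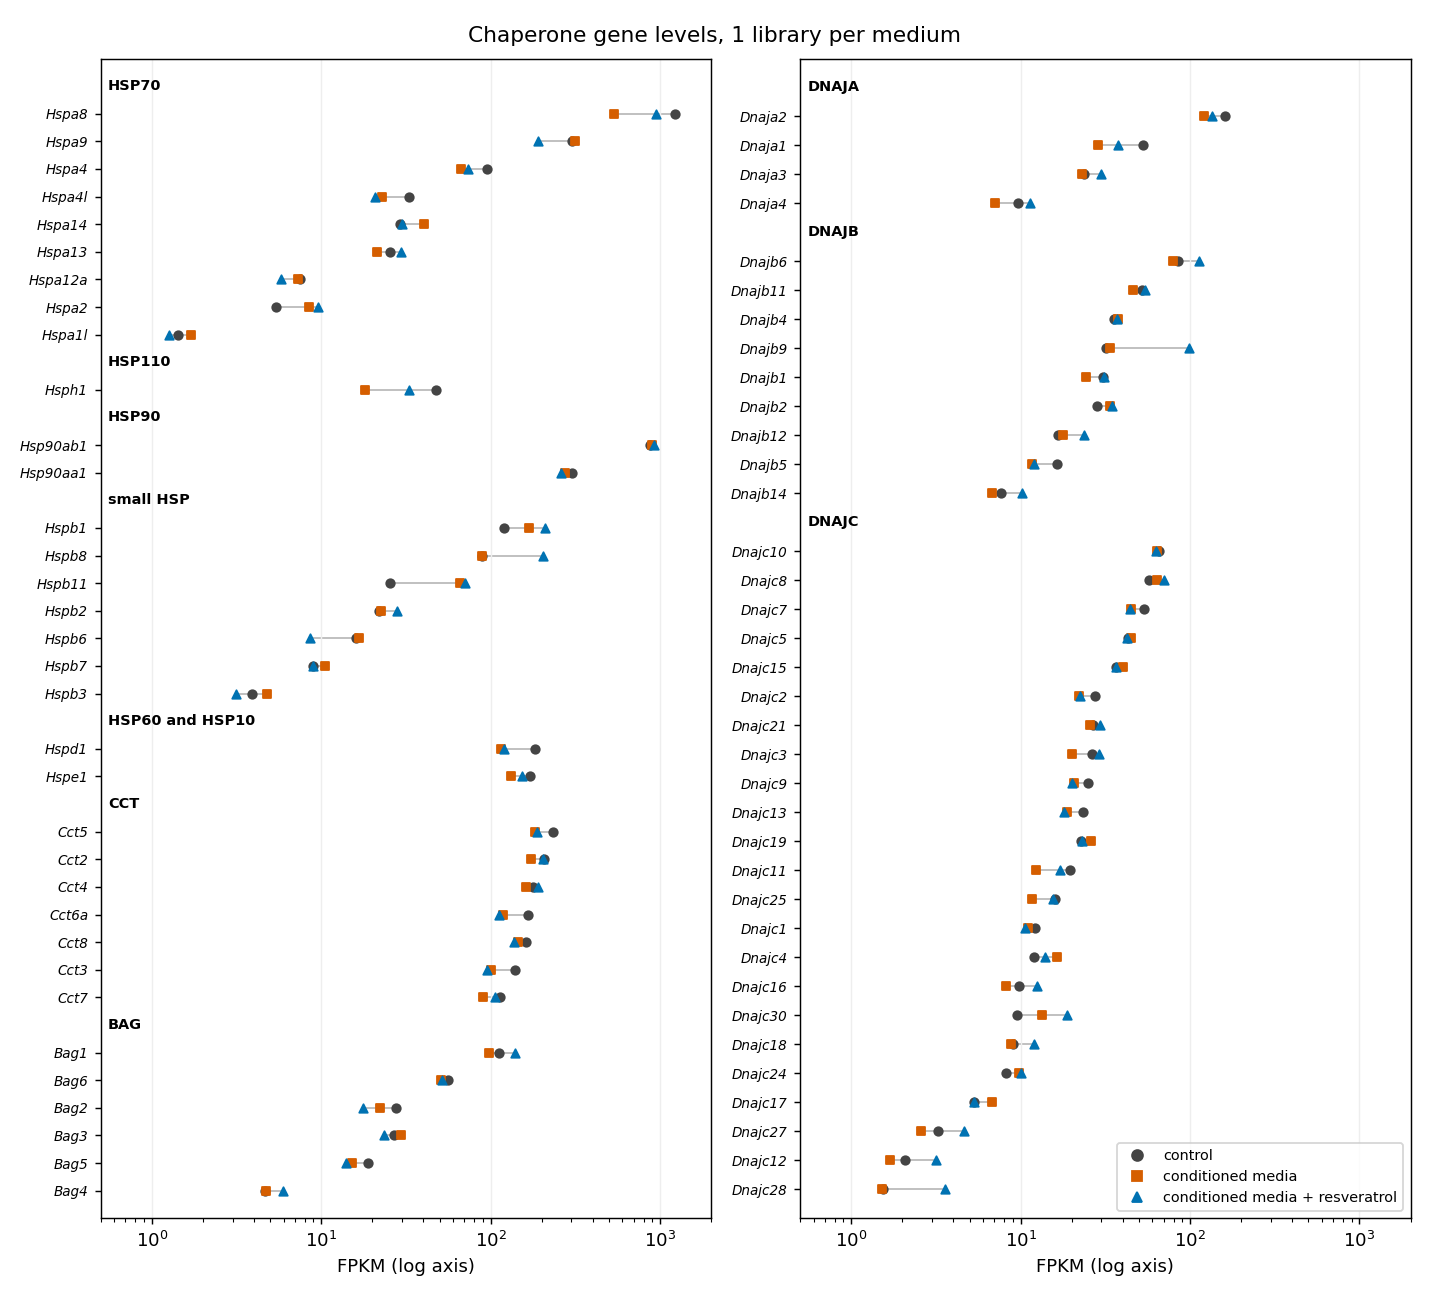
Level of each of the 70 chaperone genes in FPKM (log axis), grouped by family, with 1 marker per library: control (circle), conditioned media (square), conditioned media with resveratrol (triangle). Hspa8, Hsph1 and Hspd1 have their control marker at the right, and Dnajb9 and Hspb8 their resveratrol marker, at 98.7 and 202 FPKM.

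Differences below are log2 ratios of FPKM plus 1, and a gene counts as higher or lower by size at an absolute log2 ratio of 1 or more, with 1.5-fold as a lower size. In conditioned media over control, 1 member was higher by size (1.43% of members, against 1.78% of all genes) and 2 were lower (2.86%, against 0.624%). At 1.5-fold, 1 was higher (against 6.93% of all genes) and 5 were lower (7.14%, against 4.58%). The authors' deposited table, whose Cuffdiff calls compare these libraries and not the conditions, called 34 of 67 tested members lower (50.7%, against 30.2% of all tested genes) and 10 higher (14.9%, against 26.1%). The median log2 ratio was −0.12, against −0.01 for all genes, and 44 of 70 members (62.9%, against 51.3% of all genes) lay below 0 and 26 above (37.1%, against 48.6%), although 30 lay below with TPM. That rescaling moves the median of all genes to 0.14 in this comparison and to 0.15 in resveratrol over control. Relative to the median of all genes, 44 members lay below it with FPKM and 43 with TPM.

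With resveratrol in conditioned media, over conditioned media alone, 2 members were higher by size (2.86%, against 1.43% of all genes) and 0 were lower (against 4.60%). At 1.5-fold, 8 were higher (11.4%, against 7.47%) and 2 were lower (2.86%, against 12.0%). The authors' deposited table had 33 of 69 tested members called higher (47.8%, against 34.6%) and 10 lower (14.5%, against 29.7%). The median was 0.12, against 0.03 for all genes, and 44 of 70 members lay above 0 (62.9%, against 53.0%) and 26 below (37.1%, against 46.9%), with FPKM and with TPM. These counts rest on the conditioned media library that the comparison before also used, so the values of each are given side by side and were not combined.

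For resveratrol over control, 3 members were higher by size (4.29%, against 3.43% of all genes) and 0 were lower (against 4.86%), with 7 higher (10.0%, against 11.1%) and 5 lower (7.14%, against 13.5%) at 1.5-fold. The authors' deposited table called 24 of 69 higher (34.8%, against 34.6%) and 27 lower (39.1%, against 34.3%). The median was −0.0041, against 0.0039 for all genes, with 35 members above 0 and 35 below (50.0% each, against 50.3% and 49.6% of all genes). With TPM the median was 0.16 and 45 members lay above 0. Relative to the median of all genes, 34 members lay above it with FPKM and 37 with TPM. In the plot of ratios by family, the members past the size lines are few and most others lie inside the middle 90% of all genes.

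**Figure D2:**
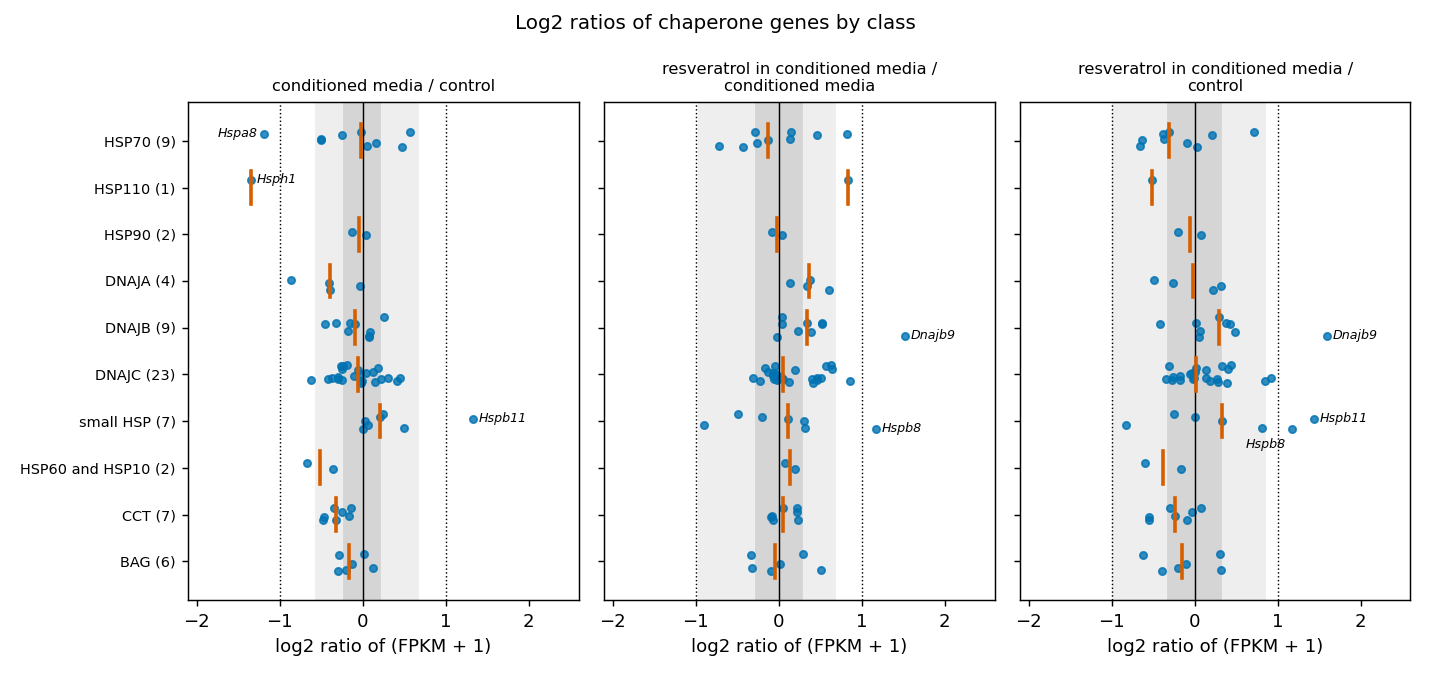
Log2 ratio of FPKM plus 1 for each chaperone gene (points) by family, with the number of genes in brackets, in the 3 comparisons; the bar is the median of the family, dark and light bands hold the middle 50% and 90% of all 11211 genes, and dotted lines mark a log2 ratio of 1 in either direction. Labelled genes are past those lines, among them Hsph1 at −1.34 and Dnajb9 at 1.52.

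Among HSP70 proteins, the largest difference was in Hspa8, the constitutive HSP70 of the cytosol (chromosome 9, 40801273 to 40805199, mm10). Its 1229 FPKM in control, 536 FPKM in conditioned media and 945 FPKM with resveratrol placed it first among members in control and with resveratrol, and second to Hsp90ab1 in conditioned media. Control was 2.29 times conditioned media, a log2 ratio of −1.20, and resveratrol over conditioned media was 0.82. With TPM the first ratio was −0.997, just short of the size. Introns of Hspa8 hold the small nucleolar RNA genes Snord14c, Snord14d and Snord14e, and whether their fragments entered its FPKM was not tested.

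Hspa9, the HSP70 of the mitochondrial matrix, whose gene holds the small RNA genes Gm22200 and Gm26109, had a different order. It stood at 301 FPKM in control, 313 FPKM in conditioned media and 189.8 FPKM with resveratrol, so the resveratrol library alone was low, with log2 ratios of 0.06 for conditioned media over control and −0.72 for resveratrol over conditioned media. Hspa4, an HSP110-like exchange factor, had 95.6, 67.2 and 73.9 FPKM, highest in control, and a log2 ratio of −0.50 for conditioned media over control. Its paralogue Hspa4l had 32.8, 22.8 and 20.8 FPKM, with control again the highest. Hspa2, an HSP70 best known from the testis, was lowest in control, at 5.41 FPKM, against 8.50 and 9.53 FPKM. The other HSP70 members, Hspa12a, Hspa13, Hspa14 and Hspa1l, had log2 ratios between −0.25 and 0.47 for conditioned media over control. The heat-inducible copies Hspa1a and Hspa1b share a locus in the table and are no members. That locus had 11.6, 5.55 and 8.53 FPKM, a log2 ratio of −0.95 for conditioned media over control, and its near-identical copies cannot be told apart.

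Hsph1, the HSP110 that exchanges nucleotide on HSP70 (chromosome 5, 149616845 to 149636344), had the lowest ratio of any member. At 47.6, 18.1 and 33.2 FPKM, control was 2.63 times conditioned media and resveratrol lay between them. The log2 ratio of −1.34 was 24th from the lowest of 11211 genes and remained below −1 with TPM, at −1.08. Resveratrol over conditioned media was 0.84. The authors' deposited table gave Cuffdiff q-values of 0.000148 for Hsph1 and for Hspa8 in all 3 comparisons. That is the lowest q-value of any member and is shared by many. Cct4 had it for conditioned media over control at a log2 ratio of −0.14, so it does not set these genes apart.

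Both HSP90 genes had similar FPKM in the 3 libraries. Hsp90ab1, the constitutive form, had 870.4, 894 and 919.7 FPKM, and Hsp90aa1, the inducible form, had 301, 276 and 262 FPKM. The log2 ratios were between −0.20 and 0.08 in the 3 comparisons, and between −0.08 and 0.27 with TPM. Their sum was 1172 FPKM in control, 1170.2 FPKM in conditioned media and 1182 FPKM with resveratrol. The 9 HSP70 genes summed to 1727, 1018 and 1306 FPKM, and the 8 without Hspa8 to 499, 482 and 361 FPKM. In that sum control and conditioned media were close and resveratrol lowest, as in Hspa9, its largest part, at 301, 313 and 189.8 FPKM. Hspa4, the next in level, was highest in control instead, at 95.6, 67.2 and 73.9 FPKM.

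**Figure D3:**
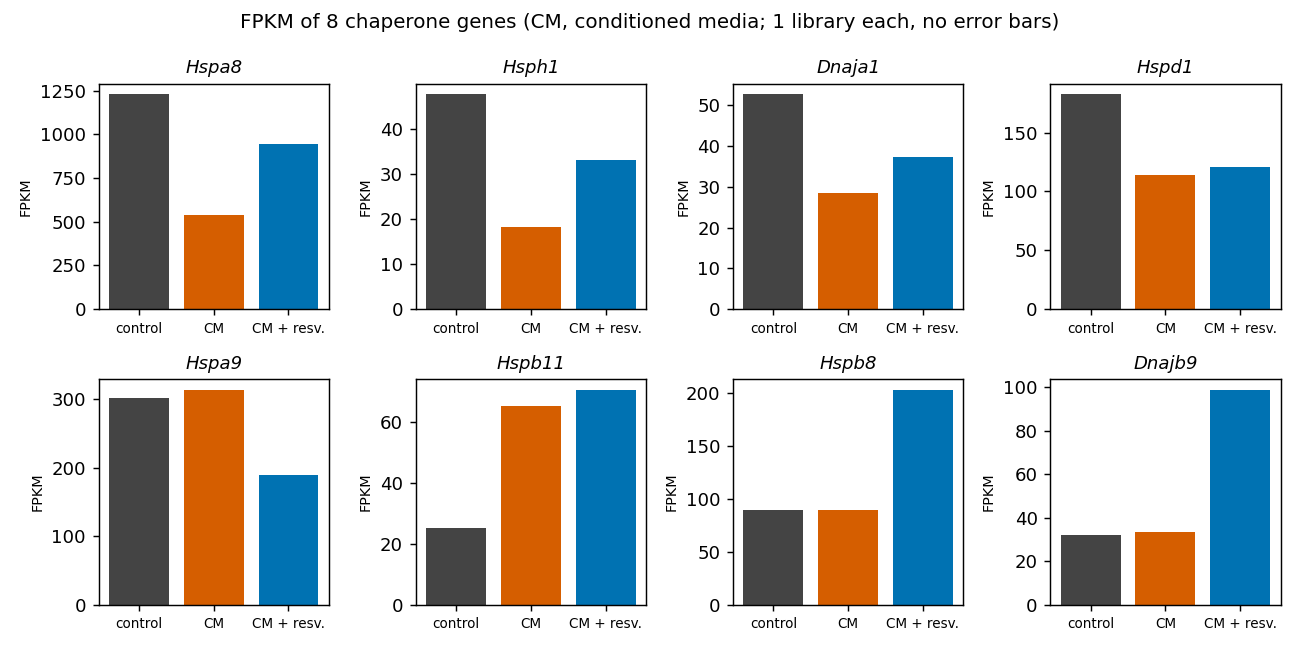
FPKM of 8 chaperone genes in the 3 libraries (bars from 0; 1 library each, so no error bars; CM, conditioned media). Hspa8, Hsph1, Dnaja1 and Hspd1 are highest in control, Hspa9 is low only with resveratrol, Hspb11 is low only in control, and Hspb8 and Dnajb9 are high only with resveratrol.

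J proteins were the largest family, with 36 members. In conditioned media over control 24 lay below 0 with FPKM (against 51.3% of all genes) but 15 with TPM, and 24 and 22 lay below the median of all genes. The authors' deposited table called 15 of 34 tested J proteins lower and 4 higher, against 30.2% and 26.1% of all tested genes. In resveratrol over conditioned media 25 lay above 0 (against 53.0% of all genes), and the median was 0.21, against 0.03. TPM, which hardly shifts this comparison, gave the same count. The deposited table called 21 of 36 higher and 0 lower, against 34.6% and 29.7% of all tested genes. By size 1 was higher (against 1.43% of all genes), 0 were lower (against 4.60%), and 5 were higher at 1.5-fold (against 7.47%).

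The DNAJA proteins, close relatives of bacterial DnaJ, lay below 0 in 4 of 4 cases for conditioned media over control. With TPM 3 of 4 did, and relative to the median of all genes 4 lay below it with FPKM and 3 with TPM. For resveratrol over conditioned media 4 of 4 lay above 0. Of all genes, 51.3% and 53.0% did so with FPKM. Dnaja1, a main partner of Hspa8 in the cytosol, had 52.6, 28.5 and 37.3 FPKM. It was highest in control and lowest in conditioned media, at log2 ratios of −0.86 and then 0.38 for resveratrol over conditioned media. Its reported locus overlaps 2 other loci and the gene holds Mir207. Dnaja2, also of the cytosol, had 162, 122 and 134 FPKM, and Dnaja4, which carries 2 heat shock units in its promoter, had 9.60, 7.08 and 11.3 FPKM. Conditioned media was the lowest library for both.

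The DNAJB group held the highest ratio of all members. Dnajb9, or ERdj4, which works with the reticulum HSP70 on the removal of misfolded secretory proteins (chromosome 12, 44205897 to 44210068), had 32.1, 33.7 and 98.7 FPKM. Control and conditioned media were close in FPKM (a log2 ratio of 0.07, and 0.24 with TPM) and the resveratrol library stood 2.93-fold above conditioned media. Its log2 ratio of 1.52 was 24th from the highest of 11211 genes, at 1.47 with TPM. The deposited table gave a Cuffdiff q-value of 0.473 for conditioned media over control. For the other comparisons it gave 0.000148, the lowest value of any member and shared by many. Dnajb6, which protects the Z-discs of muscle and carries 3 heat shock units, had 84.6, 79.0 and 113 FPKM, highest with resveratrol, at a log2 ratio of 0.52 over conditioned media. Dnajb1, the classical heat-inducible HSP40, was lowest in conditioned media, at 30.7, 24.3 and 31.0 FPKM. Dnajb4, its relative abundant in muscle, had 35.7, 37.7 and 37.1 FPKM, and Dnajb5 had 16.3, 11.6 and 11.9 FPKM, highest in control. Over conditioned media, 8 of 9 DNAJB genes lay above 0 with resveratrol, against 53.0% of all genes.

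The 23 DNAJC proteins share only the J domain and have many roles. In any comparison 0 passed the size, against 0.624% to 4.86% of all genes in each direction, so 0 of 23 says little about the family. Dnajc11, of the mitochondrial inner membrane complex that shapes cristae, had 19.5, 12.2 and 17.2 FPKM, lowest in conditioned media, at −0.63 over control. Dnajc30, also mitochondrial, had 9.47, 13.3 and 18.7 FPKM, and Dnajc28 had 1.54, 1.52 and 3.58 FPKM. Both were highest with resveratrol. For Dnajc28 the log2 ratio over conditioned media was 0.86, and 1.19 with a pseudocount of 0.1 FPKM. Dnajc27, a small GTPase with a J domain, had 3.26, 2.59 and 4.62 FPKM. The most abundant, Dnajc10 of the reticulum with 65.6, 64.1 and 62.9 FPKM and the splicing-related Dnajc8 with 57.5, 64.0 and 69.8 FPKM, had log2 ratios over conditioned media of −0.03 and 0.12.

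Across families, the 11 members of the endoplasmic reticulum had a median log2 ratio of 0.41 for resveratrol over conditioned media, against 0.03 for all genes, with 9 above 0 (against 53.0%) and 9 called higher in the deposited table (against 34.6%). The 37 cytosolic members had a median of 0.05 with 22 above 0, and the 10 mitochondrial members a median of 0.14 with 6 above 0. For conditioned media over control, 51.3% of all genes lay below 0 with FPKM. The members below 0 were 9 of the 11 reticulum, 23 of the 37 cytosolic and 5 of the 10 mitochondrial. With TPM, where the median of all genes is 0.14, these counts were 4, 19 and 3. Relative to the median of all genes, 9, 23 and 5 lay below it with FPKM and 8, 24 and 4 with TPM.

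The 7 members named Hspb, small heat shock proteins by symbol, lay above 0 for conditioned media over control with FPKM (against 48.6% of all genes). Their median was 0.21, against −0.01. TPM raises the ratios in this comparison, so it could not bring any of them below 0. Relative to the median of all genes, 7 lay above it under both scalings. Hspb8, Hspb2 and Hspb6 were close to 0 with FPKM, at 0.0028, 0.028 and 0.064. The deposited table called 3 of the 7 higher, against 26.1% of all tested genes. Cryab, a small heat shock protein that the name rule does not take in, lay at −0.49 in this comparison, and at −0.29 with TPM. The 7 summed to 285, 378 and 531 FPKM, and to 259.6, 313 and 461 FPKM without Hspb11, a protein of cilia described below. With Cryab the sums were 514, 541 and 886 FPKM, and with Cryab but without Hspb11 they were 489, 475 and 815 FPKM. Hspb1, or HSP25, which binds actin filaments, was the most abundant, at 119.6, 169 and 209.9 FPKM, lowest in control and highest with resveratrol, with a log2 ratio of 0.81 for resveratrol over control. Hspb8, which with Bag3 sends damaged filament proteins to autophagy (chromosome 5, 116408491 to 116422864), had 89.2, 89.4 and 202 FPKM. Control and conditioned media were close in FPKM (a log2 ratio of 0.00, and 0.19 with TPM) and resveratrol was 2.27 times conditioned media, a log2 ratio of 1.17, and 1.15 with TPM.

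Hspb11 was the 1 member higher by size in conditioned media over control, at 25.4, 65.5 and 70.6 FPKM, a log2 ratio of 1.33 (chromosome 4, 107253889 to 107279932). It was low in control and alike in both other libraries, 95th from the highest ratio of 11211 genes. Despite its symbol it is known as IFT25, a part of the transport machinery of cilia, and leaving out members of the reticulum and of other roles left 0 higher by size. Hspb6, or HSP20 of striated and smooth muscle, went the other way with resveratrol, at 15.99, 16.8 and 8.55 FPKM and a log2 ratio of −0.89 over conditioned media. It overlaps another locus and holds a small RNA gene. Hspb2, Hspb3 and Hspb7, all small heat shock proteins of muscle, had log2 ratios between 0.03 and 0.24 for conditioned media over control.

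The mitochondrial chaperonin of Hspd1 (HSP60) and its lid Hspe1 (HSP10), which share the promoter shown above on opposite strands, were both highest in control, although with TPM Hspe1 was level with control in the resveratrol library (a log2 ratio of 0.03). Hspd1 had 183, 114 and 120.5 FPKM, with log2 ratios of −0.67 for conditioned media over control and −0.60 for resveratrol over control, and 0.07 for resveratrol over conditioned media. Hspe1 had 171, 133 and 153 FPKM, at −0.36 for conditioned media over control. Both are reported with 1 span, chromosome 1, 55077834 to 55091317.

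CCT, the cytosolic ring of 8 different subunits that folds actin and tubulin, is made from Cct2 to Cct8 and Tcp1, of which the Cct genes are members. In conditioned media over control 7 of 7 lay below 0 (5 of 7 with TPM), against 51.3% of all genes, and all 7 lay below the median of all genes under both scalings. Their median was −0.32, against −0.01. The deposited table called 7 of 7 lower and 0 higher, against 30.2% and 26.1% of all tested genes. By size 0 were lower and 0 higher, against 0.624% and 1.78% of all genes. At 1.5-fold 0 were lower and 0 higher, against 4.58% and 6.93%. Summed FPKM was 1197, 970.4 and 1030.0. The largest difference was in Cct6a, with 165, 118 and 112 FPKM, and next Cct3, with 139, 101 and 94.6 FPKM. For both genes, each conditioned media library was below control. Cct6a holds the small RNA genes Snora15 and Gm23245 and shares its span with another locus. Cct5 had 232, 182 and 188 FPKM and Cct8 had 161, 144 and 137 FPKM, also highest in control, although Cct8 in conditioned media over control was 0.03 with TPM. Cct2 with 207, 173 and 203 FPKM, Cct4 with 179, 162 and 189 FPKM and Cct7 with 113, 90.7 and 107 FPKM were lowest in conditioned media, although Cct4 in conditioned media over control was 0.05 with TPM. Tcp1, which overlaps 4 other loci and holds Snora20, had 154, 141 and 122 FPKM. Within a library the highest member was 2.04, 2.00 and 2.14 times the lowest, as the plot of subunits shows.

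**Figure D4:**
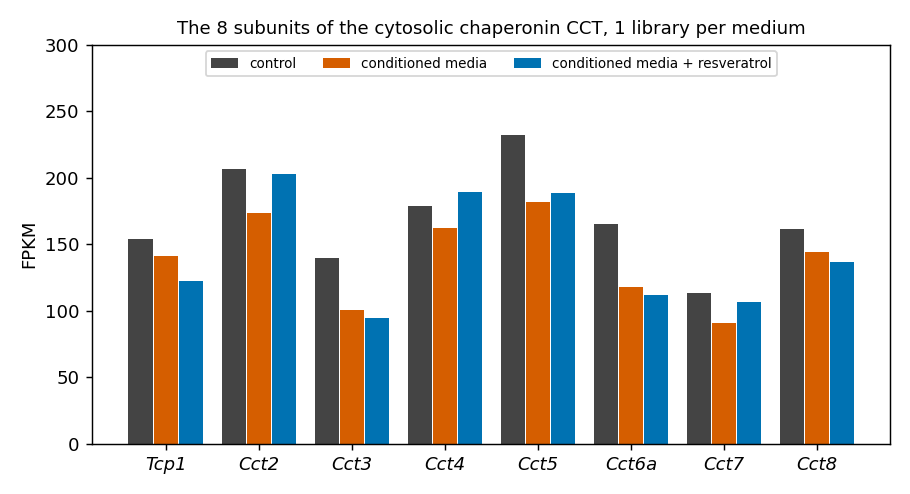
FPKM of the 8 subunits of the cytosolic chaperonin CCT in the 3 libraries (bars from 0, 1 library each, no error bars). In FPKM control is above conditioned media for each subunit (with TPM not for Cct4, Cct8 and Tcp1), with Cct5 at 232 and 182 FPKM, and the resveratrol bar lies above conditioned media for Cct2, Cct4, Cct5 and Cct7.

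BAG proteins release clients from HSP70. In any comparison 0 of 6 passed the size, against 0.624% to 4.86% of all genes in each direction, which says little about so few genes. Bag1, which links HSP70 to the proteasome, had 112, 97.5 and 139 FPKM, highest with resveratrol, at 0.51 over conditioned media. Bag2, an inhibitor of the ubiquitin ligase that works with HSP70, had 27.6, 22.3 and 17.5 FPKM, highest in control and lowest with resveratrol, at −0.62 for resveratrol over control. Bag3, the partner of Hspb8, had 27.1, 29.5 and 23.4 FPKM, lowest with resveratrol, where Hspb8 was highest. Bag6, which guards tail-anchored proteins, had 55.7, 51.0 and 51.7 FPKM, and Bag5 had 18.9, 15.2 and 14.1 FPKM.

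The 4 members with 3 heat shock units in the promoter had a median log2 ratio of −0.52 for conditioned media over control. In that comparison Hsph1 lay at −1.34, Hspd1 at −0.67, Hspe1 at −0.36 and Dnajb6 at −0.10. Their median for resveratrol over conditioned media, which rests on the same conditioned media library, was 0.36. For resveratrol over control it was −0.34. The 52 other members with a promoter entry had medians of −0.12, 0.04 and −0.0041 in the same order. Medians with TPM were not computed for these groups. With 2 units, the 17 members had medians of −0.25, 0.20 and −0.16, against −0.13, 0.04 and 0.0042 for the other 39. The windows with 3 units are few, and Hspd1 and Hspe1 share theirs. The 14 members without a promoter entry, among them Hspa8, Hsp90ab1, Hsp90aa1 and Hspa9, the 4 members of highest level in control, are in neither group.

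Other genes of protein folding were taken from lists by textbook role. Of 6 heat shock factor genes 4 were measured, and 0 passed the size in any comparison, against 0.624% to 4.86% of all genes in each direction. Hsf1, the main heat-responsive factor, had 24.9, 18.7 and 17.5 FPKM, highest in control. Hsf2 had 13.3, 10.5 and 16.8 FPKM, Hsf4 had 2.70, 3.85 and 2.43 FPKM, and Hsbp1, a small inhibitor of Hsf1, had 148, 127 and 151 FPKM. Conditioned media was lowest for Hsf2 and Hsbp1 and highest for Hsf4.

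HSP90 co-chaperones, which load clients and time the HSP90 cycle, lay below 0 in 21 of 24 cases for conditioned media over control. Of all genes 51.3% lay below 0 with FPKM, and the median of the list was −0.30. With TPM 18 lay below 0, and 21 lay below the median of all genes under both scalings. The deposited table called 18 of 24 lower and 1 higher, against 30.2% and 26.1% of all tested genes. By size 0 were lower and 0 higher, against 0.624% and 1.78% of all genes. Chordc1 had 41.5, 22.6 and 23.9 FPKM, highest in control, at −0.85, and Stip1, which joins HSP70 to HSP90, had 73.7, 61.4 and 66.8 FPKM. In resveratrol over conditioned media 18 of 24 lay above 0 (against 53.0% of all genes) and 1 was higher by size (against 1.43%). This was Itgb1bp2 (melusin), a co-chaperone restricted to muscle, with 35.2, 26.3 and 61.9 FPKM and a log2 ratio of 1.21. Fkbp5 had 10.8, 8.04 and 14.8 FPKM, also highest with resveratrol, and Ahsa2 had 24.8, 18.4 and 14.0 FPKM, lowest there.

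Among 10 HSP70 co-chaperones, Sgtb, a glutamine-rich adaptor for HSP70, had 2.37, 4.83 and 10.3 FPKM, lowest in control and highest with resveratrol, and passed the size in resveratrol over control, at 1.75. Sil1, the exchange factor of the reticulum, had 27.7, 30.4 and 41.7 FPKM, and Hyou1, also of the reticulum, had 34.0, 24.2 and 34.1 FPKM. Of 15 measured genes for prefoldin, Tcp1 and the tubulin cofactors, 12 lay above 0 for resveratrol over conditioned media (against 53.0% of all genes). By size 0 were higher and 0 lower, against 1.43% and 4.60% of all genes. Pfdn5 had 157, 172 and 244 FPKM and Tbca 142, 154 and 224 FPKM, both highest with resveratrol.

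Of 22 genes for mitochondrial import and proteases, 18 lay above 0 for resveratrol over conditioned media (against 53.0% of all genes), at a median of 0.20, against 0.03. Hscb, a J protein of iron-sulphur cluster assembly that the name rule does not take in, had 6.63, 14.5 and 22.4 FPKM, lowest in control, with log2 ratios of 1.02 for conditioned media over control, just short of the size at 0.999 with TPM, and 1.62 for resveratrol over control. Lonp1, the matrix protease, was highest in conditioned media, at 55.9, 83.5 and 47.1 FPKM, and Trap1, the mitochondrial HSP90, was highest with resveratrol, at 35.2, 35.9 and 47.8 FPKM. Tomm40, the import pore, had 32.2, 22.9 and 17.3 FPKM, highest in control.

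Of 13 reticulum chaperones, 10 lay above 0 for resveratrol over conditioned media (against 53.0% of all genes). The deposited table called 10 higher and 2 lower (against 34.6% and 29.7% of all tested genes). By size 0 were higher and 0 lower, against 1.43% and 4.60% of all genes. Hspa5, the reticulum HSP70 left out by the name rule, had 394, 391 and 596 FPKM, and Hsp90b1 had 346, 406 and 432 FPKM, both highest with resveratrol. Sdf2l1 had 12.5, 8.999 and 19.0 FPKM, and Serpinh1, which folds collagen, went the other way at 679, 644 and 428 FPKM. Cryab, the abundant small heat shock protein of muscle named as a crystallin, had 229, 162 and 354 FPKM, lowest in conditioned media and highest with resveratrol, at −0.49 for conditioned media over control and 1.12 for resveratrol over conditioned media. Its locus overlaps that of Hspb2, whose FPKM was 21.99, 22.4 and 27.9. The plot of the other lists sets these beside all genes.

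**Figure D5:**
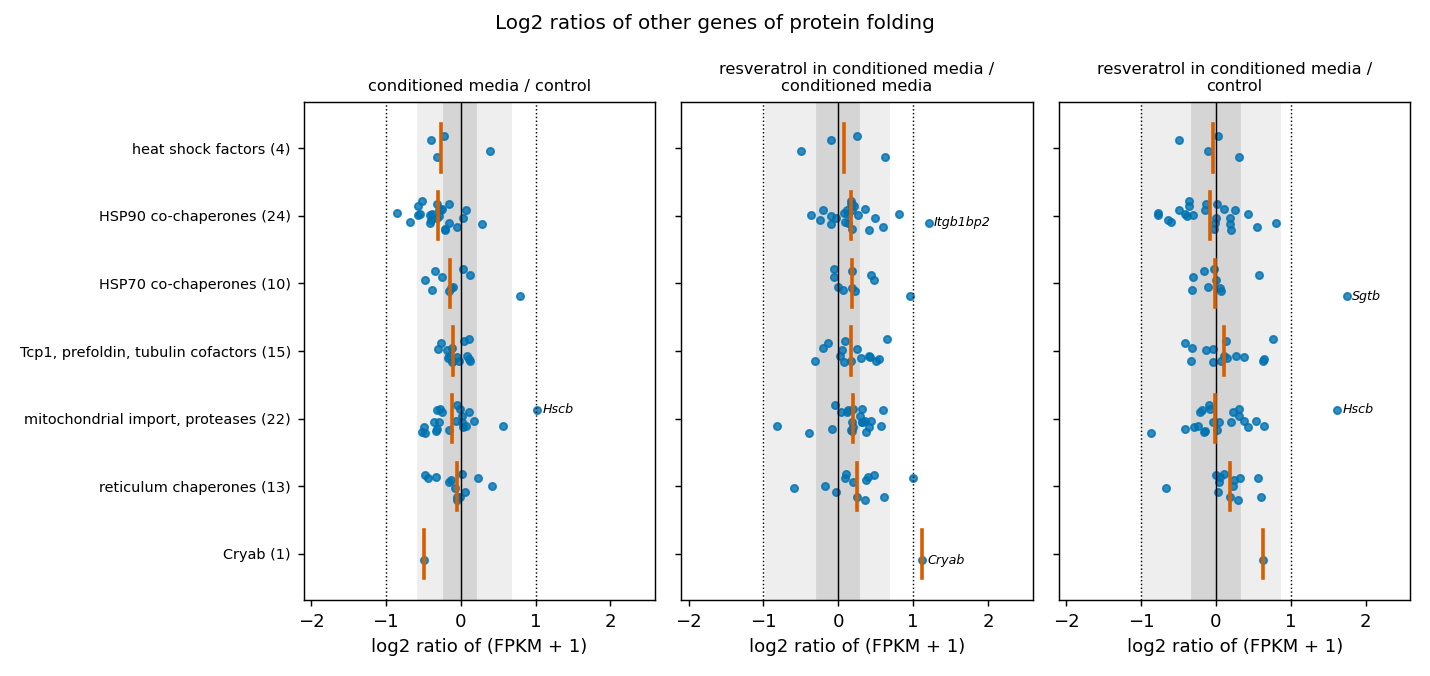
Log2 ratio of FPKM plus 1 for genes of the other folding lists (points), with the number measured in brackets, in the 3 comparisons; bars are list medians, dark and light bands hold the middle 50% and 90% of all 11211 genes, and dotted lines mark a log2 ratio of 1 in either direction. Labelled genes are past the lines: Hscb, Itgb1bp2, Cryab and Sgtb.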

How the data were processed

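RNA sequencing of 3 libraries, 1 per medium, was used, with libraries placed in groups by their treatment labels. Growth medium held 10% fetal bovine serum, and total RNA went through TRIzol and RNeasy into an Illumina TruSeq v2 kit, per the labels' protocols. Tools in the submitters' processing notes are Cuffdiff 2.2.1.3, Cufflinks 2.2.1.0, TopHat2 2.1.0 with Bowtie, Trim Galore 0.4.3.1 and FastQC 0.69, with mm10 as the build. The serum of the control DMEM, the solvent of resveratrol, the annotation, the strand setting and the scaling were not given in these sources.

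FPKM values, scaled by transcript length and library size, were computed by the authors for 24401 loci. How library size was measured and the libraries were scaled to each other was not given. The log2 fold changes, the test statistic (a score) and the p-values and q-values in the deposited table are the authors' Cuffdiff output, made with 1 library per group and quoted as given. Antisense and overlapping genes cannot be told apart where the strand setting is not known, and 18 of 70 members share their reported span with another locus.

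Ratios were computed with Python 3.11.15 and pandas 2.3.3 as the log2 of FPKM plus 1, and shares and medians of all genes are over the 11211 genes with 1 symbol and a mean of 1 FPKM or more, or, for the authors' calls, over the 10486, 10531 and 10451 of them that the authors tested in conditioned media over control, resveratrol over conditioned media and resveratrol over control. The size calls were tested on simulated data with assumed noise and planted changes above the size. That checks the working of the rule only. It cannot give a rate of false calls here, as the spread between cultures is unknown. Alternatives were pseudocounts of 0.1 and 5, a minimum mean of 5 FPKM or none, TPM, centring, loci per symbol, leaving out members with a small RNA gene of at most 200 bases (GENCODE M21) or of other roles, 1.5-fold, and the authors' calls. Leaving out Hspa8 and the motif of CCAAT and CCACG were chosen after the data were seen.

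The members, the lists and the rule for named genes were chosen with earlier results of these data known. Named are members past the size, in each family the 2 of highest mean and the 2 of largest ratio in each of the comparisons of conditioned media over control and of resveratrol over conditioned media, and a fixed set of symbols. Of the other lists, those past the size, up to 4 per list by ratio, and 7 fixed symbols are named. Hspa4l, Hspa1l, Hspb2, Tcp1 and the locus of Hspa1a and Hspa1b were given for family context, some with values seen.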

Additional observations from a re-analysis of the deposited data

How the results depend on the processing

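No paired analysis was possible because each group holds 1 library. Counts of members by size were within 1.5 times of those reported under both pseudocounts, both minimum levels and centring on the median of all genes. No member had more than 1 locus, so the treatments of loci could not change these counts. At 1.5-fold, the lower count for conditioned media over control was 5, the counts for resveratrol over conditioned media were 8 higher and 2 lower, and those for resveratrol over control were 7 higher and 5 lower. The authors' calls gave 10 higher and 34 lower for conditioned media over control, 33 higher and 10 lower for resveratrol over conditioned media, and 24 higher and 27 lower for resveratrol over control. Without members of the reticulum and of other roles, the higher counts were 0, 1 and 1 in the same order. The lower count for conditioned media over control was 1 with TPM, 1 without members that hold a small RNA gene, and 1 without Hspa8, in each case because Hspa8 dropped out. With TPM the median of members reversed to 0.058 for conditioned media over control and moved to 0.16 for resveratrol over control, and the ratio of summed levels was 0.94 in place of 0.82 and 1.08 in place of 0.94, the latter a reversal. Without Hspa8 the summed ratio for conditioned media over control was 0.91. The common sum for TPM is over all 24401 loci, at 3.38e+06, 2.95e+06 and 2.96e+06 FPKM in control, conditioned media and resveratrol. The 11211 compared genes summed to 553599, 589750 and 614606 FPKM, lowest in control. Loci outside the compared genes thus set the upward shift of TPM ratios against control. Against the median of all genes, the member median stood at −0.11 with FPKM and −0.08 with TPM in conditioned media over control. Scaling therefore sets the sign of small ratios against control, and without replicate cultures or counts no error could be put on any ratio. Identity and motifs of the proteins were not run.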
